A study of Mus musculus with 6 samples.

Results

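The actin contractile genes and the targets of SRF and YAP were followed as a set of 9 genes in mouse granulosa cells (GCs), which line the ovarian follicle and support the oocyte. They were *Acta2*, *Actg2*, *Tagln*, *Cnn1*, *Myl9*, *Tpm1*, *Tpm2*, *Ankrd1* and *Amotl2*, chosen by name from a table of 16300 genes. The choice was made with earlier results of these data known. All 9 had a row in the table and passed the filter on low values. RNA-seq was performed on 6 libraries of primary GC cultures, of which 3 were controls and 3 had received 25 nM dihydrotestosterone (DHT), an androgen that aromatase does not turn into estrogen, for 24 h. Both groups came from wild type C57BL/6J mice aged 8 to 9 weeks. GCs of 5 mice were pooled for each library, so the p-values measure the spread between pools. By the study's methods the cells were first grown in medium with serum and were then starved of serum and treated without it. The comparison asked which transcripts differ after androgen exposure. The sample labels give granulosa cells as the cell type but whole ovary as the extracted material, and their free text names DHT for all samples, so the groups were taken from the separate treatment entry. In bulk RNA, fewer cells of a type and less RNA per cell cannot be told apart.

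Smooth muscle actin, myosin light chain, calponin, transgelin and tropomyosin build or decorate the filaments that cells contract with. Many of their genes are switched on by serum response factor (SRF) with its cofactors of the MRTF family, which enter the nucleus when free actin monomers are used up in filaments. YAP and TAZ are coactivators that bind TEAD factors and are held back by the Hippo kinases. Both routes respond to the tension of the actin cytoskeleton, and in the ovary Hippo signalling is known for its part in follicle growth.

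Of the 9 genes, *Acta2*, *Actg2* and *Cnn1* rose with DHT, *Ankrd1* fell, and 5 did not pass the test. The 3 that rose went up by 1.44-fold to 1.69-fold, and *Ankrd1* dropped to 0.797 of its control level. A gene was called when its p from limma, adjusted by Benjamini-Hochberg over the 16292 genes tested, did not exceed 0.05. By that rule 6.52% of all genes were higher and 4.66% lower, against 3 and 1 of the 9 genes. None of the 9 also passed the study's second threshold of an absolute log2 fold change above 1, which with the first was met by 1.31% of all genes. At an unadjusted p under 0.05 by limma 7 of the 9 were higher and 2 lower, against 13.4% and 11.8% of all genes. Each DHT library lay above each control library for 6 of the 9 genes and below for 2, where 15.9% and 14.7% of all genes did so. The median log2 fold change was 0.39 over the 9 genes and -0.0052 over all genes tested. Because the 9 were chosen with earlier results known, these counts and the median describe the set and do not test it. Leaving out control library 2 gave 5 higher and 0 lower genes, leaving out DHT library 3 gave 1 and 0, leaving out DHT library 2 left 1 higher, and leaving out control library 1 gave 2 lower. Without the intensity trend in the variance model, none of the 9 passed.

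**Figure D1:**
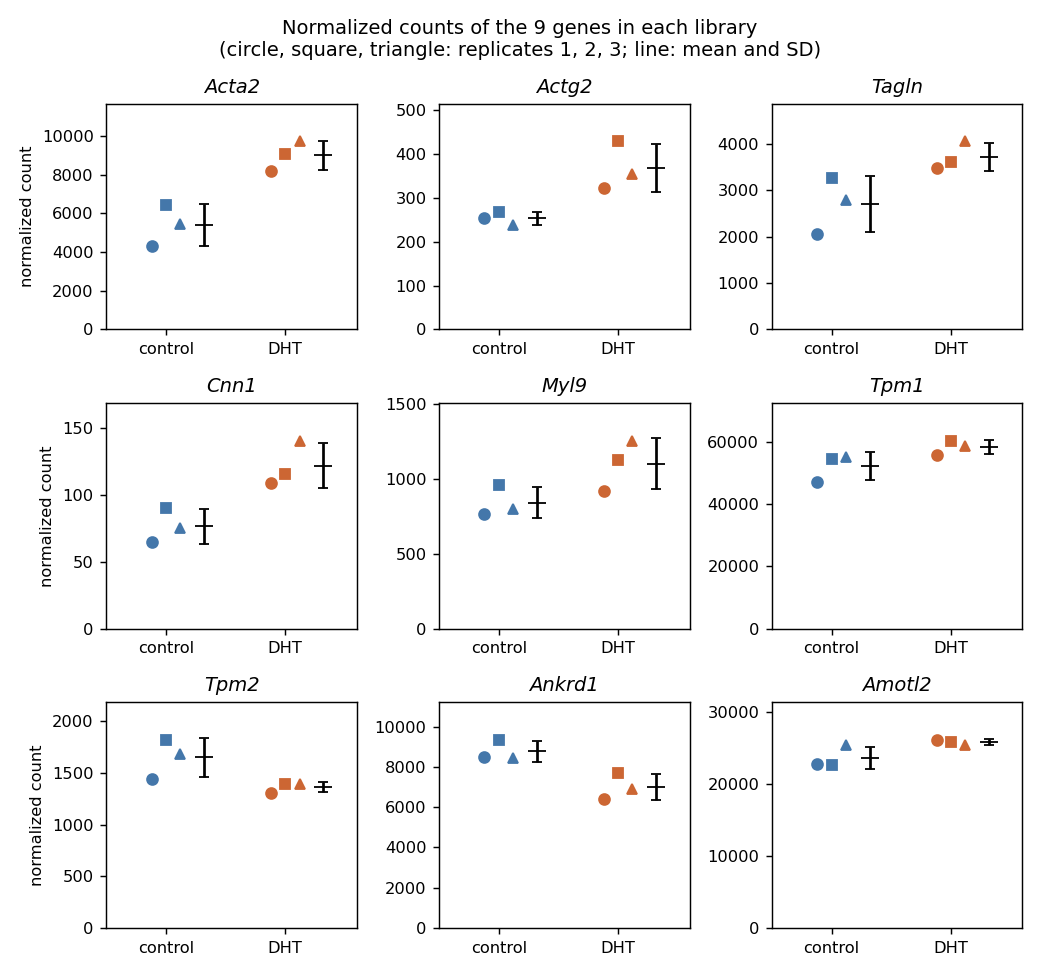
Normalized counts (vertical axes, from 0) of the 9 genes in the 3 control and 3 DHT libraries, with circles, squares and triangles for replicates 1, 2 and 3 and the mean and SD beside each group. *Acta2* sits between 8217 and 9735 in the DHT libraries and between 4293 and 6425 in the control libraries, while *Ankrd1* is lower in each DHT library and *Myl9* overlaps between the groups.

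*Acta2* (ENSMUSG00000035783, chromosome 19, 34241090 to 34255590, minus strand, GRCm38) encodes smooth muscle alpha actin, the actin of contractile smooth muscle and of myofibroblasts. Its normalized count was 4293, 6425 and 5479 in control libraries 1, 2 and 3 and 8217, 9086 and 9735 in DHT libraries 1, 2 and 3. The lowest DHT library stood well above the highest control library, and the control libraries were the more scattered group. The mean went from 5399 ± 1068 to 9012 ± 762 (SD, n = 3), a rise of 1.69-fold with a 95% interval of 1.38 to 2.06. On the log2 scale this was 0.76 with a standard error of 0.13 (adjusted p = 0.0056, limma with Benjamini-Hochberg). With each library left out in turn the log2 fold change of *Acta2* stayed between 0.60 and 0.89 and the gene passed each time.

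To show what the start of the gene holds, the RefSeq window from 250 bases before to 50 bases after the start of transcription was searched for the CArG box, the DNA element that SRF binds (CC and GG around a run of A or T bases), on both strands. No exact CArG box was found in the *Acta2* window, and 2 matches were found when 1 base of the core was allowed to differ. They begin 84 and 34 bases before the RefSeq start, at chr19:34255438-34255467 and chr19:34255388-34255417 on the minus strand of GRCm38.p6, in sequence that GENCODE annotates as exon of some transcript. Capitals mark the matches.
Acta2 upstream match: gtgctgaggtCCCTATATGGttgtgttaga
Acta2 downstream match: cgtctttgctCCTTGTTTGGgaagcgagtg
A window with an exact CArG box was found for 1.63% of the 32851 windows of all genes, and 9.98% held one when 1 core base was allowed to differ. A match describes the letters in the window and is not evidence of binding.

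*Actg2* (ENSMUSG00000059430, chromosome 6, 83512905 to 83536265, minus strand) encodes smooth muscle gamma actin, the actin of visceral smooth muscle. Control libraries held 253, 269 and 239 normalized counts and DHT libraries 322, 429 and 354. The control libraries lay close together and all below the DHT libraries, of which the second was the highest. *Actg2* rose by 1.44-fold (95% interval 1.21 to 1.72), from 254 ± 14.8 to 368 ± 54.8 (SD, n = 3), with an adjusted p of 0.019 by limma with Benjamini-Hochberg. It missed the threshold without DHT library 2 (adjusted p = 0.067, limma) and without DHT library 3 (adjusted p = 0.063, limma).

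The cytoplasmic actins gave the scale for both. *Actb* and *Actg1*, which encode the beta and gamma actins of all cells, had log2 fold changes of 0.04 (adjusted p = 0.69) and 0.17 (adjusted p = 0.12) by limma with Benjamini-Hochberg. *Acta1*, the skeletal muscle actin, had no row in the table. Normalized counts per kilobase of exons were summed over *Acta2*, *Actg2*, *Actc1*, *Actb* and *Actg1* in each library, so that the share of each actin does not depend on the scaling between libraries. *Acta2* held 2.82%, 3.88% and 3.46% of the actin sum in the control libraries and 4.99%, 5.12% and 5.53% in the DHT libraries. The groups did not overlap, and the share went from 3.39% ± 0.53 to 5.21% ± 0.28 (SD, n = 3). The share of *Actg2* was 0.226% ± 0.011 in control and 0.2999% ± 0.035 in DHT libraries, also without overlap. These shares were chosen with the values known and carry no test.

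*Cnn1* (ENSMUSG00000001349, chromosome 9, 22099216 to 22109630, plus strand) encodes calponin 1, an actin-binding protein that marks differentiated smooth muscle and dampens the myosin ATPase. Its normalized count was 64.3, 90.1 and 75.04 in the control libraries and 109, 116 and 140 in the DHT libraries. Each DHT library exceeded each control library, with control library 1 lowest and DHT library 3 highest. *Cnn1* rose by 1.59-fold (95% interval 1.22 to 2.07), from 76.5 ± 13.0 to 122 ± 16.7 (SD, n = 3), with an adjusted p of 0.037 by limma with Benjamini-Hochberg. The gene kept its direction with each library left out but passed in only 1 of those 6 fits, without control library 2, and its adjusted p without DHT library 3 was 0.15.

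*Tagln* (ENSMUSG00000032085, chromosome 9, 45929619 to 45936058, minus strand) encodes transgelin or SM22 alpha, an actin cross-linker and a classical SRF target. Normalized counts of *Tagln* were 2055, 3273 and 2780 in the control and 3480, 3603 and 4055 in the DHT libraries. The DHT libraries were all higher, but the gap between DHT library 1 and control library 2 was small beside the spread of the controls. The log2 fold change was 0.48 ± 0.14 (SE, 95% interval 0.16 to 0.80) and did not pass the test (adjusted p = 0.064, limma with Benjamini-Hochberg). Without control library 2 it was 0.63 and passed (adjusted p = 0.019, limma). Of the 1988 exonic bases of *Tagln*, 1241 lie opposite exons of the antisense gene *Gm48529* and 108 opposite *Pcsk7*. The strand setting of the counting is not given in the sources used here, so reads of these genes could not be told apart. For *Gm48529* the normalized count was 168 ± 44.6 in control and 136 ± 6.44 in DHT libraries (SD, n = 3), a log2 difference of -0.27 (adjusted p = 0.40, limma). None of the other 8 genes shared exonic bases with another gene.

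*Myl9* (ENSMUSG00000067818, chromosome 2, 156775420 to 156781658, plus strand) encodes the regulatory light chain of smooth muscle and non-muscle myosin, whose phosphorylation starts contraction. The control libraries held 764, 959 and 800 normalized counts and the DHT libraries 921, 1130 and 1258. DHT library 1 lay below control library 2, which made *Myl9* the only one of the 9 genes whose groups overlapped. Its log2 fold change was 0.39 ± 0.12 (SE, 95% interval 0.12 to 0.66) and missed the threshold (adjusted p = 0.074, limma with Benjamini-Hochberg). *Myl9* passed without control library 2 (adjusted p = 0.049, limma) and without DHT library 1 (adjusted p = 0.021, limma).

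*Myl9* was the only one of the 7 genes with a RefSeq window that held an exact CArG box, and a second match with 1 core base changed lies downstream of it. They begin 161 and 99 bases before the start, at chr2:156775293-156775322 and chr2:156775355-156775384 on the plus strand of GRCm38.p6, outside annotated exons. They are shown for comparison with the *Acta2* matches, with the box in capitals.
Myl9 exact box: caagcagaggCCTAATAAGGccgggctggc
Myl9 second match: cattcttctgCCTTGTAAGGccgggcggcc

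The tropomyosins, rods that lie along the actin filament and set which proteins can bind it, had log2 fold changes of opposite sign, and neither passed the test. *Tpm1* (ENSMUSG00000032366, chromosome 9, 67022590 to 67049406, minus strand) was counted at 46961, 54437 and 55177 in the control and 55909, 60423 and 58600 in DHT libraries. The groups just failed to meet, with DHT library 1 close above control library 3. Its log2 fold change was 0.16 ± 0.07 (SE, 95% interval 0.01 to 0.31, adjusted p = 0.17, limma with Benjamini-Hochberg).

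*Tpm2* (ENSMUSG00000028464, chromosome 4, 43514711 to 43523765, minus strand) encodes beta tropomyosin. It was the only gene of the actin group with lower counts after DHT, at 1445, 1820 and 1686 in the control libraries and 1304, 1394 and 1392 in the DHT libraries. The DHT libraries were tightly grouped and all below the controls, of which library 1 was the nearest. The log2 fold change was -0.27 ± 0.08 (SE, 95% interval -0.45 to -0.09, adjusted p = 0.061, limma with Benjamini-Hochberg). Without control library 1 the log2 fold change of *Tpm2* was -0.36 and passed (adjusted p = 0.0060, limma).

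Within the tropomyosins, each counted per kilobase of exons, *Tpm2* held 2.29%, 2.57% and 2.44% of the sum of *Tpm1* to *Tpm4* in the control libraries and 1.84%, 1.85% and 1.87% in the DHT libraries. That was 2.43% ± 0.14 against 1.86% ± 0.015 (SD, n = 3), without overlap, while *Tpm1* held 34.6% ± 1.27 and 35.6% ± 0.35. The log2 ratio of *Tpm1* to *Tpm2* was 4.99 ± 0.07 in control and 5.42 ± 0.02 in DHT libraries. The log2 ratio of *Acta2* to *Tpm2* was 1.70 ± 0.12 and 2.72 ± 0.08 (SD, n = 3), a difference of 1.02, and again the groups did not overlap.

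*Ankrd1* (ENSMUSG00000024803, chromosome 19, 36111961 to 36120099, minus strand) encodes a cardiac ankyrin repeat protein and is widely used as a readout of YAP activity. Control libraries held 8500, 9350 and 8457 normalized counts and DHT libraries 6403, 7682 and 6922. Each DHT library was lower than each control library, and library 2 was the highest of both groups. *Ankrd1* fell from 8769 ± 503 to 7002 ± 643 (SD, n = 3), which is 0.797 of control (95% interval 0.717 to 0.886), with an adjusted p of 0.015 by limma with Benjamini-Hochberg. The fall missed the threshold without control library 2 (adjusted p = 0.053, limma) and without DHT library 3 (adjusted p = 0.067, limma).

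*Amotl2* (ENSMUSG00000032531, chromosome 9, 102716672 to 102733418, plus strand) encodes an angiomotin that binds YAP and holds it outside the nucleus, and is itself a YAP target. Its normalized counts were 22796, 22662 and 25357 in the control libraries and 26106, 25865 and 25391 in the DHT libraries. The DHT libraries lay within a narrow range just above control library 3, so that the groups nearly touched. The log2 fold change was 0.13 ± 0.05 (SE, 95% interval 0.02 to 0.24) and did not pass (adjusted p = 0.14, limma with Benjamini-Hochberg). It passed without control library 3, where it was 0.18 (adjusted p = 0.020, limma). The log2 ratio of *Amotl2* to *Ankrd1* was 1.42, 1.28 and 1.58 in control and 2.03, 1.75 and 1.87 in DHT libraries, and the groups did not overlap. In the same libraries, the 2 YAP targets of the set thus had fold changes of opposite sign, and only *Ankrd1* passed the test.

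The windows of both genes hold the letters GGAATG, the core that TEAD factors recognise, searched on both strands. *Ankrd1* has 2 copies that begin 210 and 123 bases before the start, at chr19:36120037-36120066 and chr19:36119950-36119979 on the minus strand. *Amotl2* has 1 copy on the opposite strand, read as CATTCC, that begins 65 bases before the start, at chr9:102717727-102717756. The copies of both genes lie in sequence that GENCODE annotates as exon of some transcript. Capitals mark the copies.
Ankrd1 upstream copy: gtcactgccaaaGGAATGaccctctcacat
Ankrd1 downstream copy: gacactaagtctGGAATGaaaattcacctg
Amotl2 copy: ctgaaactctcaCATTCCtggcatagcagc
*Acta2* and *Tpm1* also hold GGAATG, so 4 of the 7 genes with a window did, against 14.7% of all windows. The same letters were found in 7 of 25 windows of the other contractile and SRF targets, 5 of 15 windows of the YAP-TEAD targets and 10 of 21 windows of the Hippo and TEAD genes. These are not all the lists searched, since the planned list whose counts are not reported is left out. *Myl9*, *Cnn1* and *Tpm2* hold none in this window.

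**Figure D2:**
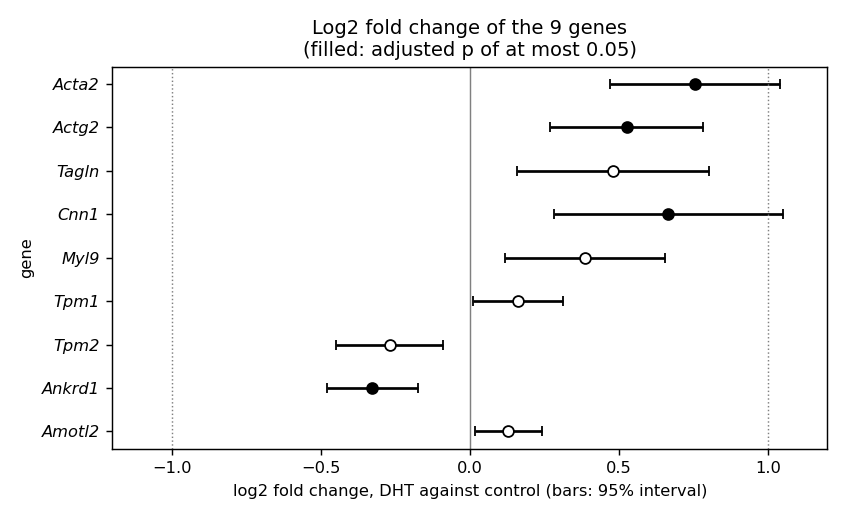
Log2 fold change of each of the 9 genes, DHT against control, with its 95% interval from limma (horizontal axis, dotted lines at -1 and 1). Filled points (*Acta2*, *Actg2*, *Cnn1*, *Ankrd1*) had an adjusted p of at most 0.05, and each point lies inside the dotted lines.

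Compared per kilobase of exons, the order of levels in control GCs was *Tpm1* (8048 ± 701 normalized counts per kilobase), *Amotl2* (3753 ± 242), *Ankrd1* (3038 ± 174), *Acta2* (2459 ± 486), *Tagln* (1360 ± 308), *Myl9* (724 ± 89.3), *Tpm2* (567 ± 65.3), *Actg2* (163 ± 9.49) and *Cnn1* (28.0 ± 4.74; SD, n = 3 for each). Neighbours in this order did not overlap between their libraries, but the highest *Acta2* library (2926) all but reached the lowest *Ankrd1* library (2930). Lengths were those of all annotated exons of a gene together, and another choice of length could change the order. For *Tpm1*, *Amotl2* and *Tpm2* they were 6485, 6289 and 2909 bases, against 2890, 4328 and 2175 in the longest coding transcript. In DHT libraries *Acta2* reached 4104 ± 347 per kilobase. With the exonic lengths used it could not be ordered against *Amotl2* at 4100 ± 57.8, whose libraries lay inside its range. *Ankrd1* came next at 2426 ± 223, below each *Acta2* library, and the remaining order was as in control. The log2 ratio of *Acta2* to *Ankrd1* was below 0 in the 3 control libraries (-0.99, -0.54 and -0.63) and above 0 in the 3 DHT libraries (0.36, 0.24 and 0.49). The smooth muscle actin transcript therefore went from the less to the more counted of this pair, a ratio chosen with the values known and given without a test.

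Libraries of one group also differed from each other. In the control group, library 1 was the lowest, library 3 the middle and library 2 the highest for 5 of the 9 genes (*Acta2*, *Tagln*, *Cnn1*, *Myl9* and *Tpm2*), an order found in 15.0% of all genes. Control library 1 was the lowest control for 6 of the 9 genes and for 34.0% of all genes. DHT library 1 was the lowest DHT library for 8 of the 9 genes, *Amotl2* being the exception, and for 37.0% of all genes. *Tpm2* had the order of *Acta2* among the controls although its difference between the groups had the opposite sign. The 9 genes were measured in the same libraries and are not independent replicates of these orders.

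**Figure D3:**
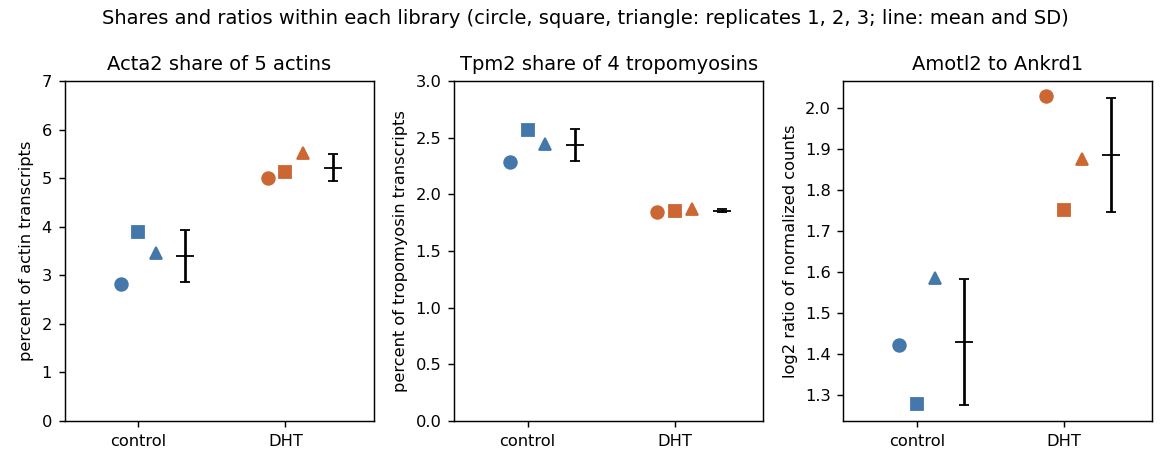
Share of *Acta2* among 5 actins and of *Tpm2* among 4 tropomyosins (percent of normalized counts per kilobase, axes from 0), and the log2 ratio of *Amotl2* to *Ankrd1* (axis not from 0), in each library with the mean and SD. The *Acta2* share is 2.82% to 3.88% in control and 4.99% to 5.53% in DHT libraries, and the groups are apart in all 3 panels.

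Other contractile and SRF target genes gave 23 tested genes from a list of 24, with none of the 9 among them. DHT raised 6 of them and lowered 0, against 6.52% higher and 4.66% lower over all genes, with 21 of 23 log2 fold changes above 0 and a median of 0.21. At an unadjusted p under 0.05 by limma, 15 of the 23 were higher and 0 lower, against 13.4% and 11.8% of all genes. *Fhl1*, a LIM domain protein of muscle, rose most among those that passed, from 978 ± 48.0 to 1767 ± 315 normalized counts (log2 fold change 0.84, adjusted p = 0.0021, limma with Benjamini-Hochberg). *Myh11*, the smooth muscle myosin heavy chain, rose from 243 ± 31.9 to 388 ± 57.3 (0.67, adjusted p = 0.013, limma). *Lmod1* (leiomodin 1, an actin nucleator of smooth muscle) rose by 0.61 on the log2 scale, and *Myh9* (non-muscle myosin heavy chain), *Cnn2* (calponin 2) and *Vcl* (vinculin, an adhesion protein) by 0.26, 0.24 and 0.17. Each DHT library lay above each control library for 13 of the 23 genes and below for 0, against 15.9% and 14.7% of all genes. An exact CArG box was found in 8 of the 25 windows of 21 of the listed genes, some of which have several starts, where 1.63% of all windows held one. None was found in the 15 windows of the YAP-TEAD targets or the 21 of the Hippo and TEAD genes, numbers too small to set against that share. The contractile list was put together with SRF targets, so its count of boxes describes that choice and not an effect of DHT. Leaving out control library 1, DHT library 2 or DHT library 3 reduced the count of 6 to 3, 1 and 2, and it was 2 without the intensity trend.

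*Srf* itself rose from 2397 ± 39.5 to 2795 ± 72.6 normalized counts, which is 0.22 on the log2 scale (SD, n = 3, adjusted p = 0.0069, limma with Benjamini-Hochberg). Its cofactor genes *Mkl1* and *Mkl2* (MRTF-A and MRTF-B) had log2 fold changes of 0.12 (adjusted p = 0.22) and -0.16 (adjusted p = 0.17) by limma. *Elk1*, another SRF partner, rose by 0.21 on the log2 scale (adjusted p = 0.021, limma), while *Elk4* and *Myocd* (myocardin) had log2 fold changes of 0.11 (adjusted p = 0.37) and -0.10 (adjusted p = 0.77) by limma. The log2 ratio of *Acta2* to *Srf* was 1.15 ± 0.27 in control and 1.69 ± 0.09 in DHT libraries, without overlap between the groups.

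Among 19 tested YAP-TEAD targets of a list of 20, 2 rose and 1 fell, against 6.52% and 4.66% of all genes, and the median log2 fold change was 0.0098. At an unadjusted p under 0.05 by limma 4 were higher and 4 lower, against 13.4% and 11.8% of all genes. *Gadd45a*, a stress gene of the DNA damage response, rose from 3227 ± 230 to 4777 ± 412 normalized counts (log2 fold change 0.56, adjusted p = 0.0012, limma with Benjamini-Hochberg), and *Myof* (myoferlin, of membrane repair) rose by 0.17 on the log2 scale (adjusted p = 0.047, limma). *Asap1*, a regulator of focal adhesions, had a log2 fold change of -0.18 (adjusted p = 0.028, limma). The matricellular genes *Cyr61* and *Ctgf*, the usual readouts of YAP beside *Ankrd1*, had log2 fold changes of -0.13 (adjusted p = 0.25) and 0.04 (adjusted p = 0.84) by limma. The fall of *Ankrd1* thus stood beside a list with fold changes of both signs. The count of 3 was 1 without DHT library 3 and 1 without the intensity trend.

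Of 20 Hippo pathway and TEAD genes, 2 rose and 0 fell, against 6.52% and 4.66% of all genes, with a median log2 fold change of -0.002. At an unadjusted p under 0.05 by limma 5 were higher and 3 lower, against 13.4% and 11.8% of all genes. *Vgll4*, which competes with YAP for TEAD, rose from 2848 ± 261 to 3683 ± 72.3 normalized counts (log2 fold change 0.38, adjusted p = 0.0052, limma with Benjamini-Hochberg), and *Nf2* (merlin, an upstream activator of the Hippo kinases) rose by 0.23 on the log2 scale (adjusted p = 0.014, limma). *Yap1* had 5692 ± 171 and 5772 ± 61.1 normalized counts (log2 fold change 0.02, adjusted p = 0.78, limma), and *Wwtr1*, which encodes TAZ, had a log2 fold change of 0.12 (adjusted p = 0.18, limma). The count of 2 was 5 without control library 3, 1 without DHT library 2 and 0 without the intensity trend. No gene of these 3 lists passed both thresholds.

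**Figure D4:**
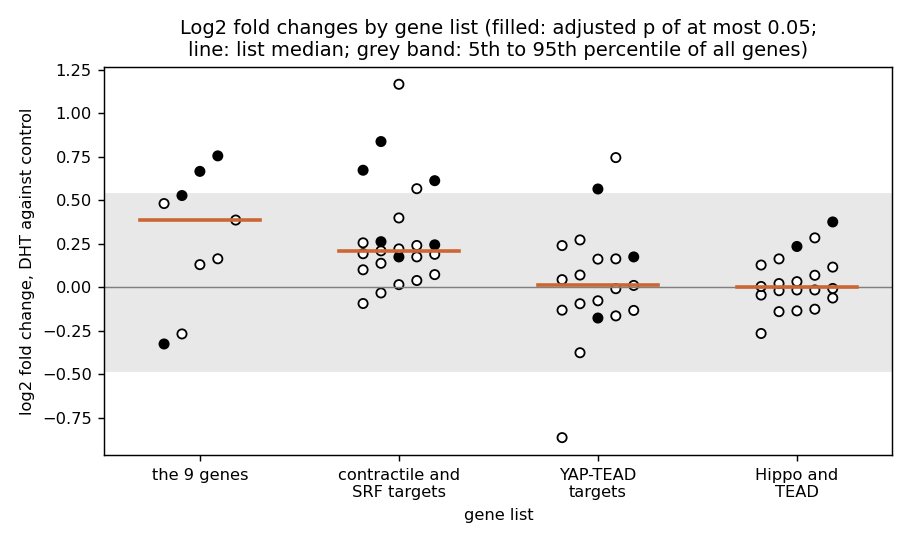
Log2 fold change (vertical axis, DHT against control) of each tested gene in the set of 9 and in 3 related gene lists, with filled points for an adjusted p of at most 0.05, a line at the list median and a grey band from the 5th to the 95th percentile of all genes (-0.48 to 0.54). The medians are 0.39 for the 9 genes, 0.21 for other contractile and SRF targets and near 0 for the other lists.

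Markers of other cells were examined because smooth muscle cells, pericytes and theca cells also express *Acta2* and *Tagln*. Of 9 smooth muscle and pericyte markers, 6 were tested and 2 rose, where 6.52% of all genes were higher and 4.66% lower. These were *Cspg4*, which went from 32.2 ± 4.33 to 60.4 ± 6.84 normalized counts (log2 fold change 0.89, adjusted p = 0.019, limma with Benjamini-Hochberg) and *Myh11*, which like *Des* is also in the contractile list. The pericyte genes *Rgs5*, *Abcc9* and *Kcnj8* had no row in a table from which low genes had been removed. *Notch3* had 111 ± 17.4 and 132 ± 19.3 normalized counts (adjusted p = 0.40, limma). The summed level of this list was 3361 to 5134 in control and 4174 to 4740 in DHT libraries, of which *Mcam* made up 87.1%. Without *Mcam* the sum was 449 to 513 in control and 620 to 744 in DHT libraries, so that the groups did not overlap. The part of such cells in the changes of *Acta2*, *Actg2* and *Cnn1* was not tested.

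For the other marker lists, the theca genes *Cyp17a1* and *Insl3* had no row, and 0 of the 2 theca markers tested, 0 of 7 fibroblast, 0 of 5 endothelial and 0 of 6 surface epithelium markers passed by limma. At an unadjusted p under 0.05, 1, 1, 1 and 2 of them were lower and 0 were higher, against 11.8% and 13.4% of all genes. Summed levels were 1437 to 1606 and 1314 to 1352 for theca, 4038 to 5272 and 4609 to 5453 for fibroblast, 258 to 280 and 222 to 275 for endothelial and 4046 to 4706 and 3200 to 4312 for epithelial markers in control and DHT libraries. *Nr2f2* made up 99.0% of the theca sum, and without it the theca range was 6.48 to 27.7 in control and 5.87 to 17.4 in DHT libraries. *Pecam1*, of endothelium, had 50.1 ± 6.14 and 62.3 ± 11.1 normalized counts and *Ptprc*, of leukocytes, 8.47 ± 2.59 and 14.3 ± 2.00. Of 5 tested immune markers 1 fell, against 4.66% of all genes. It was *Csf1r* (log2 fold change -0.64, adjusted p = 0.027, limma), and the list had sums of 479 to 565 and 364 to 617.

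Granulosa markers were present, with summed levels of 225244 to 238070 in control and 247146 to 258230 in DHT libraries. *Cyp11a1*, the enzyme that starts steroid synthesis, made up 43.3% of the sum, and without it the sums were 139352 to 157513 in control and 123489 to 138688 in DHT libraries, lower in place of higher. Of the 11 tested, where 6.52% of all genes were higher and 4.66% lower, *Cyp11a1* and *Hsd17b1* (steroid synthesis) rose by 0.49 and 0.48 on the log2 scale, while *Inha* (inhibin alpha), *Esr2* (estrogen receptor beta) and *Foxl2* (the granulosa identity factor) had log2 fold changes of -0.61, -0.36 and -0.15 and passed as lower by limma with Benjamini-Hochberg. *Fshr*, the receptor for follicle-stimulating hormone, lay between 140 and 168 normalized counts in control and between 135 and 159 in DHT libraries, and *Cyp19a1* had no row.

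The genes whose pattern was most like the 9 were ranked by mean Pearson correlation over the 6 libraries among 11625 genes with a mean of at least 100. *Cyth1*, *Foxred1*, *Eftud2*, *Tmem237* and *Pls3* led with mean correlations of 0.60 to 0.61. None of these 5 passed the test, with log2 fold changes of 0.05 to 0.11. *Tpm2* and *Ankrd1* had negative correlations with each of the other 7 genes, from -0.78 to -0.17. What kept the mean correlations at this level was not tested.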

How the data were processed

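Total RNA of pooled GCs was sequenced in paired-end mode by the study. Per the labels and the study's methods, the authors trimmed reads with Trimmomatic 0.36, mapped them to GRCm38 with STAR 2.5.2b and used featureCounts of Subread 1.5.2 to count uniquely mapped reads per gene. The strand setting is not given in the sources used here. The signal that the authors deposited is a normalized count, for which the authors scaled the reads of a gene by a DESeq2 size factor, and low genes had been removed before deposit. In each library 100% of the values were whole multiples of one step to within 0.01 reads, which gave 36111177 to 41928585 reads on genes per library. Columns with the authors' fold changes and p-values, and a table with a part of the same genes, were not used.

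A linear model on log2(value + 1) was fitted by limma 3.58.1 (R 4.3.3). It used an intensity trend. Genes under a mean of 10 were left out, which kept 16292, and p-values were adjusted by Benjamini-Hochberg over all of them. The pseudocount of 1 understates changes of low genes. The fit used all 6 libraries, with no covariate. For 3 against 3 libraries, the smallest p of an exact permutation test is 0.1. The call rules were an adjusted p not above 0.05, alone or together with an absolute log2 fold change above 1. The steps were checked on simulated data.

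The 9 genes and all gene lists were chosen with earlier results of these data known. The genes to name were the 9, up to 2 genes in each direction with the largest log2 fold change among those called in each list reported here, a fixed set of reference genes (*Srf*, *Yap1*, *Wwtr1*, *Cyr61*, *Ctgf*, *Myh11*, *Actb*, *Rgs5*, *Notch3*, *Cyp17a1*, *Pecam1*, *Ptprc*, *Fshr* and *Foxl2*), and the 5 genes most correlated with the 9. Other genes were named after their values were seen, as were the ratios and shares chosen. Exonic lengths, overlaps and positions came from GENCODE for GRCm38, and sequence windows from RefSeq for GRCm38.p6, which matched 7 of the 9 genes. *Actg2* and *Tagln* were not matched.

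The alternatives changed the pseudocount to 0.5 or 8, dropped the filter on low values or raised it to 50, left out the intensity trend, took the replicate number as a block, or omitted each library in turn. Trimmed-mean scaling and quantile normalization were added after seeing the data. The planned scaling and count models on recovered reads were not run. The counts of 1 planned gene list are not reported here.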

Additional observations from a re-analysis of the deposited data

How the results depend on the processing

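None of the 9 genes changed direction under any of the 14 alternatives. *Acta2* passed in 13, *Actg2* and *Ankrd1* in 11 each and *Cnn1* in 7, while *Tpm1* passed in 0 and *Tagln*, *Tpm2* and *Amotl2* in 1 each and *Myl9* in 2. Without the intensity trend 804 genes passed in place of 1823, with 0 higher and 0 lower of the 9, 2 contractile and SRF targets, 1 YAP-TEAD target and 0 Hippo and TEAD genes, and the adjusted p of *Acta2* was 0.066 by limma. With a mean of at least 50, 131 genes passed both thresholds in place of 213, fewer genes being tested, and 5 Hippo and TEAD genes passed, as they did under quantile normalization. The labels share replicate numbers between groups. Libraries with the same number deviated from their groups with correlations of 0.0058, 0.067 and -0.24, and control library 1 with DHT library 3 had 0.23. With 3 libraries a group, these correlations cannot decide whether the numbers pair the samples. Under the replicate block 990 genes passed, with 1 YAP-TEAD target and with *Cnn1* at an adjusted p of 0.075 by limma. Leaving out each library gave 937 to 2103 genes at the adjusted p, 140 to 285 past both thresholds, 1 to 5 higher and 0 to 2 lower of the 9, 1 to 9 contractile and SRF targets, 1 to 4 YAP-TEAD targets and 1 to 5 Hippo and TEAD genes. None of the 9 passed both thresholds in any alternative. The cause of these differences was not tested. Trimmed-mean scaling and quantile normalization moved the median log2 fold change of all genes to -0.0045 and -0.014. The planned trimmed mean of M-values scaling and the 2 count models on recovered reads were not run. With 3 libraries a group, the intervals of *Tpm1* and *Amotl2* reach from near 0 to 0.31 and 0.24 on the log2 scale.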
